A study of Rattus norvegicus with 16 samples.

Results

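The regions described here are stretches of rat RNA in which the authors' N4-acetylcytidine (ac4C) peaks recurred between samples. The peaks of 5 deposited lists were split into their exon blocks, and blocks that overlapped by at least 1 bp on the same strand and under the same gene identifier were merged into segments. A segment was kept when peaks of at least 2 of the 5 lists covered it, which left 862 of 13104 segments. The other 12242 segments came from a single list. The members were thus selected on the measured peaks themselves, so their number, width, fold and pattern over the 5 lists are a description and carry no test.

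The samples were dorsal horn of the spinal cord from wild-type (WT) rats, either normal animals (control) or animals with bone cancer pain (cancer-induced bone pain, CIBP). Each group had 3 pairs of an ac4C immunoprecipitate (IP) and its input, which the labels describe as biological replicates, and each pair gave 1 peak list. Control lists 1, 2 and 3 and CIBP lists 2 and 3 entered the rule, and CIBP list 1 did not. Another 4 libraries, 2 IP and 2 input from CIBP animals, belonged to a second RNA immunoprecipitation (RIP) with a target that the labels leave unnamed. The sources used here do not state strain, sex, age, tumour cells or day of sampling, nor whether a replicate was 1 animal or several. The CIBP lists carry the abbreviation CFA in place of CIBP, and the groups follow the labels.

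N4-acetylcytidine is a cytidine with an acetyl group on its exocyclic amine. In mammals it is made by the acetyltransferase NAT10, has long been known in 18S ribosomal RNA and in some tRNAs, and has been reported in mRNA, where its extent is debated. In an ac4C immunoprecipitation an antibody pulls down RNA fragments, and a peak is a place where IP reads outnumber input reads. The spinal dorsal horn receives the central endings of sensory neurons and is the first relay of pain signals to the brain.

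The 5 lists held 1173 to 2416 peaks with a median peak width of 180 bp in each. CIBP list 1 held 50417 peaks, of which 49281 carried the same fold of 10.6 and 919 passed the authors' false discovery rate (FDR) of at most 0.05. That list stood apart from the rest and is used only as a list that took no part in choosing the members, at an FDR of at most 0.05 unless stated. Without read totals, the depth of each list is unknown. Markers of the tissue were checked in the RIP inputs: all 6 oligodendrocyte, all 6 astrocyte and 4 of 6 neuronal markers were in the authors' table, all 9 markers of excitatory and inhibitory dorsal horn neurons were too, and 0 of 4 muscle and bone markers were. Of 5 markers of Schwann cells and sensory ganglia 3 were in the table, with a summed input signal of 315 and 327 in the 2 inputs, against 305 and 336 for the 4 neuronal markers. Also in it were 5 of 6 microglial, 2 of 3 precursor, 2 of 4 endothelial, 2 of 4 fibroblast and 1 of 3 blood markers. The table holds only genes past a threshold of the RIP, so a missing marker may still be expressed in the tissue. Coordinates are 1-based in the rn6 build; exon, intron and UTR positions and the base sequence of the segments were not analysed here.

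Most recurring segments were shared by the smallest number of lists the rule allows. Of the 862 segments, 782 were covered in 2 lists, 59 in 3, 10 in 4 and 11 in all 5. They lay in 550 genes, out of 4792 with any segment, and 461 of the 550 had a unique symbol. Each of 327 genes held 1 segment, 155 held 2, 53 held 3 and 15 held 4 to 6. Because a peak can span several exon blocks, segments are not independent of each other: they reduced to 570 separate loci, and 227 of these loci held 519 of the segments.

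Segments covered in more lists were wider and were more often 1 unbroken block. The median width was 92 bp for single-list segments, 123 bp for 2 lists, 161 bp for 3, 172 bp for 4 and 207 bp for 5. Every covering peak had more than 1 exon block for 74.5% of the single-list segments, 68.3% of those in 2 lists and 44.1% of those in 3. Among the 21 segments of 4 or 5 lists that held for 1, and 19 of the 21 came from peaks of a single block in each list. A wide block can be overlapped more easily than a narrow one, and the part of width in these counts was not tested.

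Some members shared few bases. In 191 of the 862 segments the largest overlap of blocks from 2 lists was under 30 bp. The smallest such overlap was 1 bp and the median was 72 bp. The 191 include short blocks that agreed in full, such as a Selenom segment of 12 bp, so they are not all marginal. Just outside the rule, 35 pairs of single-list segments from different lists lay within 30 bp of each other without touching. The edges were the same in every covering list for 277 segments (32.1%). For 561 of the 862 segments every covering peak had more than 1 exon block, and such blocks can end where an exon ends. How many of the shared edges were exon ends was not examined. The authors' FDR was at most 0.05 in 2 or more lists for 469 segments, in 1 list for 314 and in none for 79.

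The segments covered most often were the 11 of all 5 lists, and 10 of them are described here, 3 in named genes. The segment of Slc35e2b, a member of a family of nucleotide sugar transporters, spanned chr5:173046046-173046194 on the plus strand. Its folds of IP over input, as the authors gave them, were 88.2, 117 and 374 in control lists 1 to 3 and 369 and 26.5 in CIBP lists 2 and 3. CIBP list 1, which did not choose it, covered it at a fold of 286. Of these 3 named segments it was the only one that CIBP list 1 covered. Of the 2 other CIBP folds 1 lay inside the control range and 1 below it.

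Usp34 encodes a large deubiquitinating enzyme. Its segment at chr14:108143962-108144203, plus strand, had folds of 61.3, 13.6 and 24.2 in the controls and 533 and 42.4 in CIBP. The control and CIBP values overlapped. A second Usp34 segment at chr14:108147132-108147190 belonged to the same peaks in control lists 1 and 2 and CIBP list 2, and was absent from the remaining 2 lists.

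Hsp90ab1 encodes the constitutive cytosolic chaperone HSP90 beta. Its segment at chr9:17820325-17820624, plus strand, had folds of 3.48, 2.07 and 34.5 in the controls and 1.69 and 1.97 in CIBP. Here all 3 controls lay above both CIBP values, with control list 3 far above the others. Usp34 and Hsp90ab1 passed the authors' FDR of 0.05 in all 5 lists, yet CIBP list 1 covered neither, even as deposited. A fold cannot be compared between lists without their depths, so these orders are given as values only.

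Another 7 segments of all 5 lists lay in genes that had no row, and so no symbol, in the RIP table. The longest, 420 bp at chr6:52557222-52557641 on the plus strand (ENSRNOG00000010415), had folds of 14.4, 219 and 16.7 in the controls and 664 and 4350 in CIBP, and 267 in CIBP list 1. The 118 bp segment at chr12:1510400-1510517 on the minus strand (ENSRNOG00000050259) had identical edges in all 5 lists, with folds of 7.10, 104 and 64.5 in the controls and 27.6 and 19.1 in CIBP. CIBP list 1 covered it with the same edges at a fold of 186. Both CIBP values lay above all controls in the first of these segments and inside the control range in the second.

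Of the remaining 5, 4 were covered by CIBP list 1. The segment at chr3:44774082-44774288 had control folds of 4.81, 8.15 and 2.79, CIBP folds of 5.66 and 2.43, and 8.23 in CIBP list 1. At chr1:173139486-173139692 the controls gave 9.02, 3.26 and 3.99, CIBP gave 3.27 and 5.30, and CIBP list 1 gave 6.35. At chr1:190338092-190338326 the controls gave 5.72, 2.90 and 4.19, CIBP gave 3.49 and 4.42, and CIBP list 1 gave 4.88. The groups overlapped in each of these 3 segments.

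The last chromosome 1 segment, at chr1:246973140-246973340, had folds of 1.6, 2.30 and 2.48 in the controls and 1.19 and 9.99 in CIBP, passed the FDR of 0.05 in 3 of the 5 lists, and had a fold of 1.38 in CIBP list 1. The segment at chr10:96050513-96050704 had 5.34, 4.89 and 7.44 in the controls and 15.7 and 13.3 in CIBP, so both CIBP values lay above all controls, but it passed that FDR in only 2 lists. CIBP list 1 covered it only as deposited, at the repeated fold of 10.6. With peaks limited to an FDR of at most 0.05, the other 9 of the 11 segments stayed in 5 lists.

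**Figure D1:**
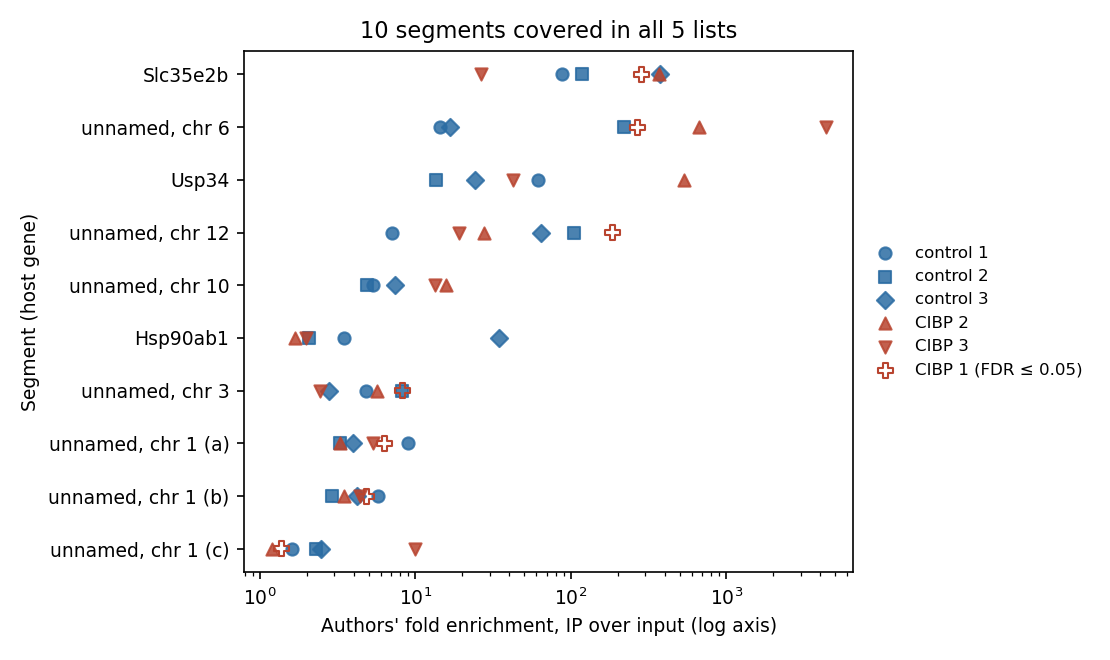
Authors' fold of IP over input (log axis) for 10 segments covered in all 5 lists, 1 row per segment and 1 symbol per peak list. Blue symbols are control lists, filled red symbols CIBP lists 2 and 3, and the open cross is CIBP list 1 where it passed an FDR of 0.05, which it did for 7 segments. Folds of 1 segment ranged from 14.4 to 4350 on chromosome 6 and from 2.90 to 5.72 in the second chromosome 1 segment.

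The blocks of these segments overlapped to differing degrees. The bases common to all 5 lists numbered 120 of 149 in Slc35e2b, 181 of 242 in Usp34 and 181 of 300 in Hsp90ab1. In the chromosome 6 segment they numbered 91 of 420, with blocks from 151 bp to 420 bp, and in the chromosome 12 segment all 118. In Slc35e2b, 4 of the 5 lists had a block of the same 120 bp, and CIBP list 2 extended it to the whole 149 bp. Peaks from different lists thus shared edges to the base at some positions and differed in length at others. Whether a shared edge was the end of an exon was not examined.

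**Figure D2:**
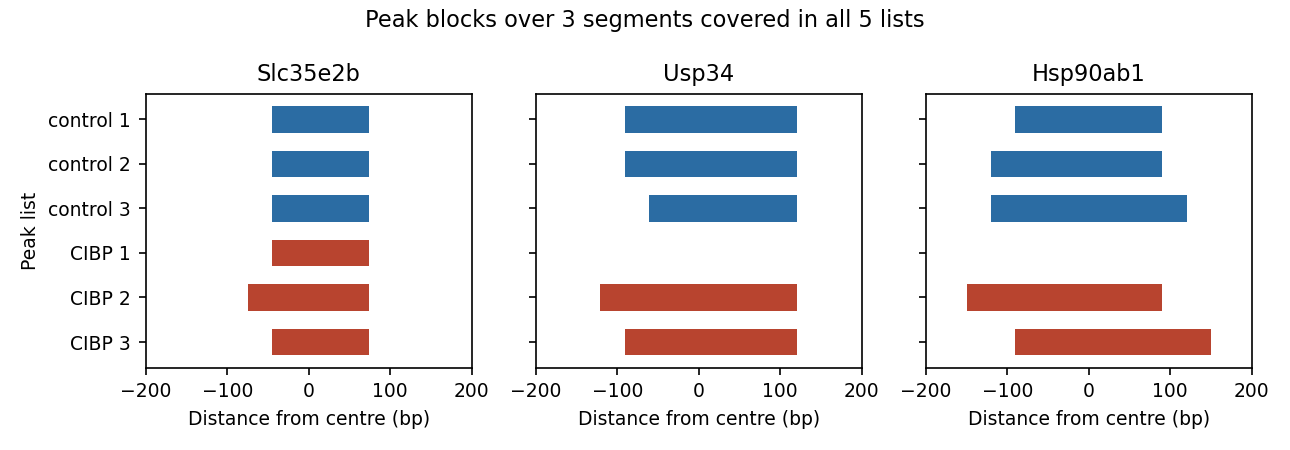
Extent of each list's exon block in 3 named segments of all 5 lists, as distance in bp from the segment's centre, 1 panel per gene and 1 bar per list (blue control, red CIBP, with CIBP list 1 at an FDR of at most 0.05). In Slc35e2b the bars share both edges except for CIBP list 2, while in Hsp90ab1 CIBP list 2 ends 90 bp to the right of the centre and CIBP list 3 reaches 150 bp.

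Only 2 of the 10 segments of 4 lists were in named genes. Slc19a2, a thiamine transporter, had a segment at chr13:82559447-82559626 with folds of 16.0 and 13.0 in control lists 1 and 2 and 10.5 and 35.3 in CIBP lists 2 and 3, and passed the FDR of 0.05 in 1 list. Cit, which encodes citron kinase, a kinase of cell division, had one at chr12:46349905-46350044 with folds of 5.22 and 16.7 in control lists 2 and 3 and 3.73 and 17.7 in CIBP. It passed in all 4 lists. In both genes the 2 CIBP values enclosed the controls. CIBP list 1 covered neither at that FDR, and it covered 3 of the 8 unnamed ones, at folds of 3.10, 10.6 and 10.6.

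Among the 59 segments of 3 lists, the lists of genes drawn up for this description held Trak1 and the second Usp34 segment. Trak1 encodes an adaptor that links mitochondria to motor proteins. Its segments at chr8:130080089-130080167 and chr8:130080921-130081051 came from single peaks with folds of 2.17 and 83.7 in control lists 2 and 3 and 10.5 in CIBP list 2. The CIBP value lay between the controls.

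Other named genes with a segment of 3 lists were chosen after their values were seen, to show the range. Nipsnap1, a mitochondrial protein, had the highest fold of a 3-list segment in CIBP list 3, with 13.0 in control list 2, 10.5 in CIBP list 2 and 2440 in CIBP list 3, and passed the FDR of 0.05 in 1 of the 3. Serpini1 (neuroserpin, a neuronal serine protease inhibitor) had 3 segments of a shared peak with folds of 13.0, 3.14 and 53.0 in the same 3 lists. Rps23, a protein of the small ribosomal subunit, had 2 such segments at 8.37 in control list 3 and 3.95 and 11.3 in CIBP. Luc7l2, a splicing factor of the U1 particle, had folds of 1.64, 2.92 and 2.15 in those lists. In Nipsnap1, Serpini1 and Rps23 the CIBP folds lay on both sides of the control, and in Luc7l2 both lay above it.

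CIBP list 1 gave the only ac4C check that the rule had not used, and it covered recurring segments more often when more lists had chosen them. At an FDR of at most 0.05 its peaks covered 1.61% of all 13104 segments (211). They covered 181 of 12242 single-list segments, or 1.48% (95% Wilson interval 1.28 to 1.71%), and 30 of 862 recurring segments, or 3.48% (2.45 to 4.92%). The share was 1.79% (1.07 to 2.98%) in 2 lists, 10.2% (4.74 to 20.5%) in 3, 30% (10.8 to 60.3%) in 4 and 63.6% (35.4 to 84.8%) in 5, the last being 7 of 11 segments. For all 80 segments of 3 or more lists it was 20% (12.7 to 30%). Segments of 2 lists, 782 of the 862, were thus covered about as often as single-list segments, with overlapping intervals. The intervals cover counting error only and are too narrow where segments share a peak or a gene.

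The excess lay in genes without a row in the RIP table. Among recurring segments of genes in that table CIBP list 1 covered 11 of 756, or 1.46% (0.814 to 2.59%), next to 1.53% of the single-list segments of such genes. Among those of genes not in it, the list covered 19 of 106, or 17.9% (11.8 to 26.3%), next to 1.09% of single-list segments. For segments of 3 or more lists the counts were 2 of 49 and 14 of 31. Width moved in the same direction: of recurring segments up to the median width 0.712% were covered, and of wider ones 4.82%, against 1.16% and 1.81% for single-list segments. What sets the genes without a row apart was not tested.

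With all its 50417 peaks, CIBP list 1 covered 17.3% of all segments, and the order turned round: 17.9% of single-list segments and 9.74% of recurring ones were covered, with 7.80% for 2 lists and 72.7% for 5. The rise toward segments of 4 and 5 lists remained, while the difference between recurring and single-list segments depended on the FDR limit.

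**Figure D3:**
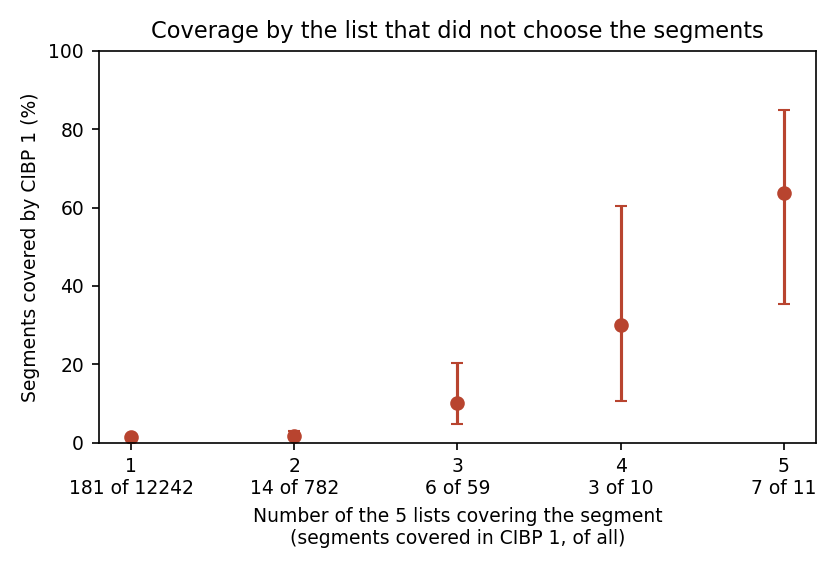
Share of segments (%) covered by a CIBP list 1 peak at an FDR of at most 0.05, by the number of the 5 other lists that cover the segment, with 95% Wilson intervals. The share is 1.48% for 1 list, 1.79% for 2, 10.2% for 3, 30% for 4 and 63.6% for 5, with 12242, 782, 59, 10 and 11 segments.

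The same count was made by leaving out each of the 5 lists in turn, so that the segments were chosen in 4 lists and looked up in the fifth. A segment of 1 other list was found in the left-out list in 2.24 to 4.80% of cases, one of 2 others in 5.56 to 10.3%, one of 3 others in 12.1 to 37.0% and one of all 4 others in 64.7 to 100%. The share rose at each step in each of the 5 lists. CIBP list 2, the longest, had the highest share at each of the first 3 steps and control list 3 the lowest at the last. The last step rests on 11 to 17 segments a list, and those found were each time the same 11 segments of all 5 lists. The 5 counts thus reuse the lists of the rule and are not independent of each other. For segments of 3 or 4 others together, 38 to 50 a list, the share was 30 to 55.3%. Limited to peaks at an FDR of at most 0.05 in the left-out list, the rise was broken in control list 3 alone, where 4.52% of segments of 2 others and 3.03% of segments of 3 others (1 of 33) were found.

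**Figure D4:**
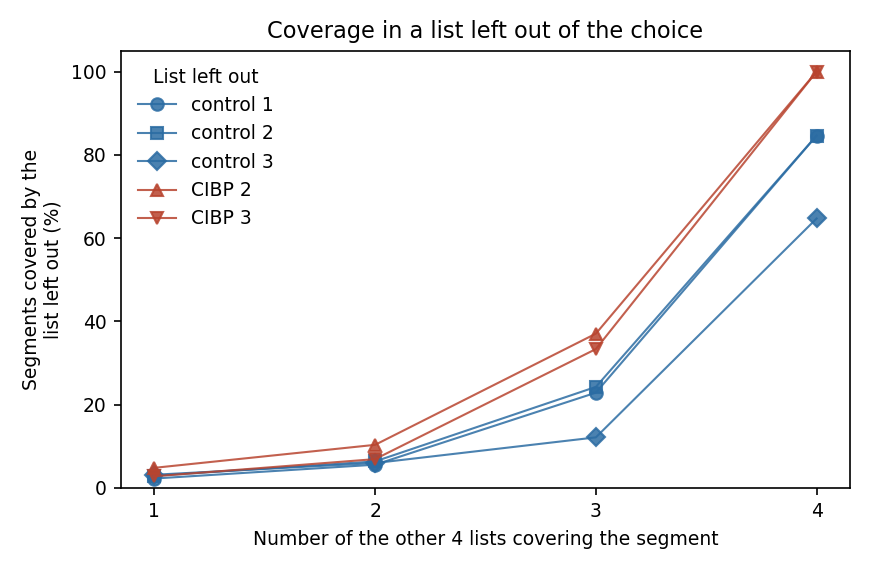
Share of segments (%) found in a left-out list, by the number of the other 4 lists that cover the segment, 1 line per left-out list, with all deposited peaks. All 5 lines rise at each step, from 2.24 to 4.80% with 1 other list to 64.7 to 100% with 4. The lines recount the same 5 lists and are not independent.

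The lists contributed unequally. Recurring segments made up 13.6% of the segments of control list 1, 10.7% of control list 2, 14.4% of control list 3, 11.5% of CIBP list 2 and 17.7% of CIBP list 3. CIBP list 2 took part in 489 of the 862. Without it 435 segments recurred in at least 2 of the other lists, without control list 3 it was 537 and without CIBP list 3 it was 563. Cutting all lists to an equal length gave 573, and an FDR of at most 0.05 gave 469.

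Any pair of lists shared few segments. The shared part was 1.61 to 3.04% of the pair's joint segments. The pair of CIBP lists 2 and 3 shared most, 185 segments, which were 4.35% of list 2 and 9.20% of list 3. Control list 3 and CIBP list 2 shared 160, which were 6.24% and 3.76% of them. The 3 control pairs shared 1.78, 1.93 and 1.81% of their joint segments, and the 6 pairs of a control and a CIBP list 1.61 to 2.40%. Lists of one group therefore overlapped in the range of lists of different groups, except for the CIBP pair, which lay above them all without a test.

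**Figure D5:**
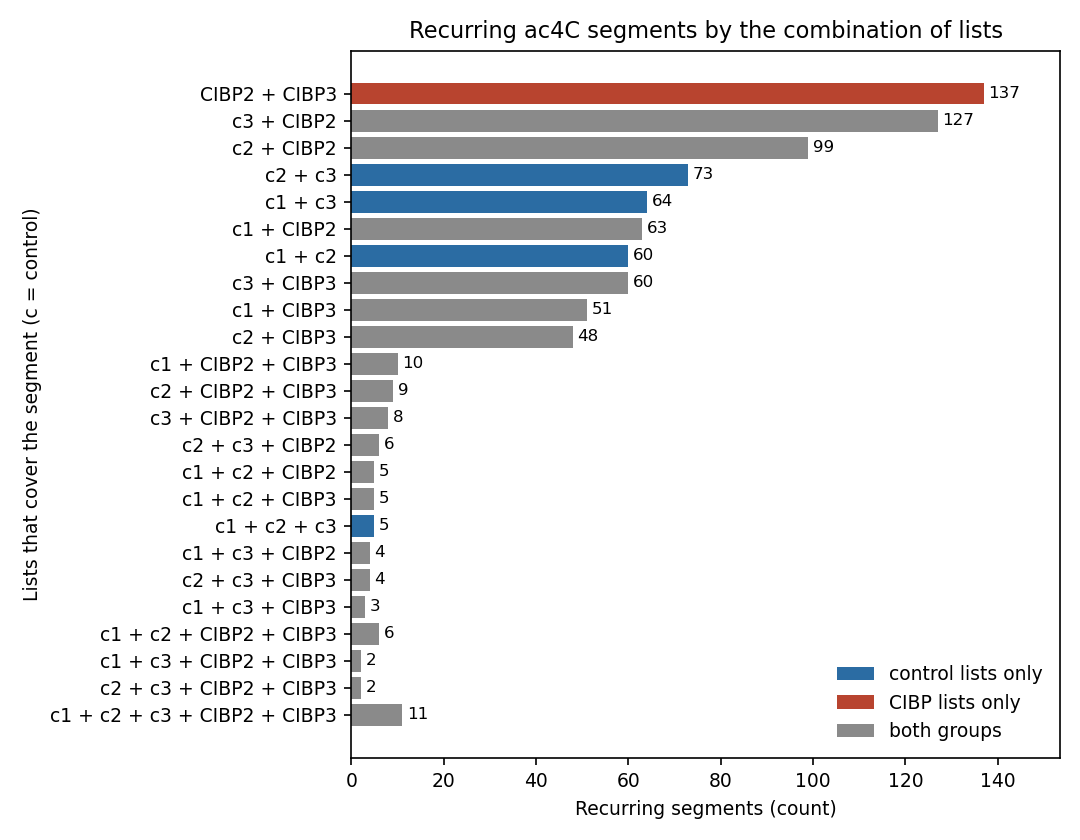
Number of recurring segments for each combination of lists (c, control), ordered by the number of lists and then by count, with bars coloured by group. The largest is CIBP lists 2 and 3 alone with 137, followed by control list 3 with CIBP list 2 with 127 and control list 2 with CIBP list 2 with 99.

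By group, 202 recurring segments in 128 genes came from controls alone, 137 in 93 genes from CIBP alone and 523 in 347 genes from both. These were 1.54% and 1.05% of all 13104 segments for the 2 one-group kinds. The kind was set for each block. A one-group segment can thus belong to a peak that overlaps the other group in another block, as in Trak1. How many do so was not counted. The groups had 3 and 2 lists of unequal length, so the 2 counts are not comparable. With 3 lists against 2 an exact permutation test of a single segment cannot go below p = 0.1, and none was made. The counts fell to 123 and 42 at an FDR of at most 0.05, and at equal list lengths to 144 and 69.

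At an FDR of at most 0.05, the shares of the 2 kinds in the unused CIBP list had overlapping intervals. It covered 2 of the 137 CIBP-only segments, 1.46% (0.401 to 5.17%), and 4 of the 202 control-only segments, 1.98% (0.773 to 4.98%), both near the 1.61% of all segments. As deposited it covered 18 of 137, or 13.1% (8.48 to 19.8%), and 13 of 202, or 6.44% (3.8 to 10.7%), both below the 17.3% of all segments. No other list bears on the group of these segments.

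Of the control-only segments, 5 were covered in all 3 control lists, 0.0382% of all segments. Pkp4, plakophilin 4, an armadillo protein of cell junctions, had a segment at chr3:45401599-45401749 with folds of 4.48, 37.5 and 29.8. Ak5, an adenylate kinase of the nervous system, had 3 of the 5, at chr2:257739302-257739359, chr2:257744460-257744550 and chr2:257813534-257813594, which were the 3 blocks of 1 peak in each list with folds of 2.91, 8.30 and 50.2. Phf3, a PHD finger protein that binds RNA polymerase II, had the last at chr9:37075128-37075338 with 2.91, 1.74 and 11.2. The 5 segments are thus 3 separate peaks. Pkp4 and Ak5 passed the FDR of 0.05 in all 3 controls and Phf3 in 2, and CIBP list 1 covered none of them.

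The CIBP-only segments that ranked highest by fold within their lists began with 4 single-block segments. Rap2a, a small GTPase, had folds of 47.1 and 133 in CIBP lists 2 and 3 at chr15:105878338-105878577. Phlpp1, a phosphatase that acts on Akt, had 68.0 and 88.3 at chr13:26172872-26173111. Gprc5b, an orphan G protein-coupled receptor, had 152 and 73.9 at chr1:188701926-188702193. Kdm6b, a histone H3 lysine demethylase, had 125 and 53.0 at chr10:56006869-56007048. All 4 passed the FDR of 0.05 in both lists, and none was covered by CIBP list 1 at that FDR.

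Several of the next ones were blocks of shared peaks. Ddb1, an adaptor of cullin ubiquitin ligases, had 2 segments with folds of 22.7 and 91.3. The one at chr1:226676990-226677113 was covered by CIBP list 1 at a fold of 2.35. Drp2, a dystrophin relative, had a segment of 26.1 and 68.5 at chrX:105286163-105286552, and Dnm3, a dynamin of the nervous system, had 15.7 and 186 at chr13:79910712-79910891. Sec22b, a SNARE between endoplasmic reticulum and Golgi, had 2 segments at 15.7 and 561. Selenom, a selenoprotein of the endoplasmic reticulum, had 3 at 15.7 and 184, and Fam168a had 2 at 27.4 and 59.1. The segments of Dnm3, Sec22b and Selenom passed the FDR of 0.05 in 1 of their 2 lists, and those of Ddb1, Drp2 and Fam168a in both. The fold of 15.7, which recurs in Dnm3, Sec22b and Selenom, was carried by 330 peaks of CIBP list 2.

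Of the 128 genes with a control-only segment and the 93 with a CIBP-only segment, 5 had both kinds, 4 of them named. Rbfox3, the neuronal splicing regulator NeuN, had a CIBP segment at chr10:107523478-107523610 with folds of 20.9 and 15.5, and a control segment at chr10:107517025-107517301 with 9.79 and 16.7 in lists 2 and 3. Zc3h13, a subunit of the complex that writes N6-methyladenosine, had a CIBP segment at chr15:57404419-57404688 with 10.5 and 61.8, and a control segment at chr15:57389056-57389385 with 5.44 and 16.7 in lists 2 and 3. Trak1 and Rab3gap1, a regulator of Rab3 and Rab18, were the others. In Trak1 the control segment, at chr8:130078127-130078185 with 2.17 and 83.7, was a further block of the peaks behind its 3-list segments. A count by gene would place these genes in both groups, whereas their one-group segments differed in position. In Trak1 the control peaks still overlapped a peak of CIBP list 2, in its 3-list segments.

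Recurring segments were most numerous in Atp2b2, the plasma membrane calcium pump PMCA2, with 6 segments on chromosome 4 between positions 145704571 and 145732955. Only 1 of the 6 had both its peaks in lists 2 and 3 of the controls, with folds of 13.0 and 274, and 1 had peaks in control lists 1 and 3, with 5.21 and 29.8. The other 4 paired control list 3 with a CIBP list, at 33.5 and 11.8 in CIBP list 3 and at 5.58 and 3.33 in CIBP list 2. Control list 3 covered all 6. Ptprz1, Trak1, Canx and Dst held 5 each, and 10 genes, Birc6, Dnajc8, Dock9 and Eif3j among them, held 4.

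The genes were read against 18 lists of functional groups. Of the named genes in the RIP table, 5.38% hosted a recurring segment (461 of 8564), and of the named genes with any segment 11.9% did. Of the 326 listed genes in that table, 64 did, or 19.6%, and 259 had any segment. The lists were written with earlier results of these data known and hold many long and highly expressed genes, so their shares are a description of where the segments lay.

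Among genes of the cytoskeleton, giant linkers and spectrins had 7 of 15 genes with a recurring segment. Macf1, which crosslinks microtubules and actin, had segments at chr5:141067547-141067550 and chr5:141067656-141067811. Both had the same folds, 15 and 8.37 in control lists 2 and 3, and CIBP list 1 covered both. Its other segments, with 5.58 in control list 3 and 2.46 in CIBP list 2, were not covered by CIBP list 1 at an FDR of at most 0.05. Dst, dystonin, had 5 segments, all with control list 3, with folds of 35.4 and 3.53 in control list 3 and CIBP list 2 for the first 3. Plec had 2 segments in CIBP alone, at 15.7 and 11.8. Motor proteins had 5 of 20: in Kif5a, a neuronal kinesin, the segment at chr7:70513673-70513972 had 4.84 in control list 1 and 1.94 in CIBP list 3 and was also covered by CIBP list 1.

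Neurofilament and microtubule genes had 4 of 14. Nefl, the light neurofilament chain, had folds of 7.13 in control list 3 and 3.41 in CIBP list 2. Nefm, the medium chain, had 2.64 and 2.61 in control lists 1 and 3. Ina, alpha-internexin, had 9.13 in control list 2 and 26.1 in CIBP list 2, at chr1:266782995-266783444, and was covered by CIBP list 1. Each of these 3 was a single segment of 2 lists.

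Among genes of excitability, voltage-gated channels had 7 of 23 and ionotropic receptors 2 of 18. The sodium channel subunit Scn8a (Nav1.6) had folds of 9.67 in control list 1 and 7.95 in CIBP list 3. Scn1a (Nav1.1) had 6.52 and 22.3 in control lists 2 and 3. Kcna2, the potassium channel Kv1.2, had 11.2 and 8.93 in those controls at chr2:209852082-209852351 and, though in no list of CIBP that entered the rule, was covered by CIBP list 1. Of the sodium channel beta subunits, Scn2b had 2.61 in control list 2 and 14.7 in CIBP list 3, and Scn3b had 13.0 and 100 in control lists 2 and 3. Of the receptors, Gria4 (AMPA receptor GluA4) had 3.26 in control list 2 and 31.4 in CIBP list 2, and Glra1 (glycine receptor alpha1) had 19.6 in control list 1 and 3.31 in CIBP list 3.

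Synaptic vesicle genes had 3 of 17 (Bsn, Rims2 and Syn1) and postsynaptic scaffolds 1 of 16 (Tanc2). Kinases and GTPase signalling had 7 of 19. In Mtor, the kinase of growth control, 2 blocks of a shared peak were CIBP-only at 107 and 4.42. Ntrk2, the BDNF receptor TrkB, was CIBP-only at 10.5 and 7.57, and Map2k1 (MEK1) at 10.5 and 8.83. The fold of 10.5 in CIBP list 2 in both was the commonest of that list. Pak1 and Trio were of controls alone, and Mapk9 (JNK2) had 3.35 in control list 3 and 13.9 in CIBP list 2.

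RNA-binding and splicing genes had 5 of 27, chromatin factors 4 of 24 and translation factors and ribosomal proteins 2 of 17. These groups are selections of genes: Rps23 and Luc7l2, described above, hold recurring segments but were not among the genes counted. Srsf5, a splicing factor, had folds of 9.79 and 16.7 in control lists 2 and 3. Eif4g3, a scaffold of translation initiation, had 3 segments, all in controls, at 31.0 and 30.1 for the first 2. Chd4, a chromatin remodeller, had 4.48 and 114 in control lists 1 and 3 for 2 segments. Of the genes for RNA acetylation and N6-methyladenosine 1 of 13 had a segment, Zc3h13.

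Among glial groups, myelin and oligodendrocyte genes had 3 of 17, of which Cntn1 and Cntnap1 are axonal proteins of the node region and Myrf is the transcription factor of oligodendrocytes. Myrf had folds of 16.7 in control list 3 and 5.23 in CIBP list 2. Astrocyte genes had 2 of 15, among them Slc1a3, the glutamate transporter GLAST, with 2 CIBP-only segments at 31.4 and 3.31. Chaperones had 3 of 14, ion pumps and energy metabolism 3 of 18, membrane traffic 3 of 20 and ubiquitin ligases and proteases 2 of 19. In bulk tissue, fewer cells of a type and less RNA per cell cannot be told apart.

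Host genes of recurring segments had a higher median input signal in the RIP than other hosts, and a median RIP enrichment close to theirs. Of the 550 hosts 463 were in the authors' deposited table (84.2%), with a median input signal of 5.99 and 6.65 in the 2 inputs. Hosts of single-list segments alone had 3440 of 4242 in it (81.1%), with 3.83 and 4.19, and all 8671 genes of the table had 3.23 and 3.45. The authors' log2 fold in the RIP had a median of 2.44 for recurring hosts, 2.43 for single-list hosts and 2.40 for the table. By pair it was 2.52 and 2.39 for recurring hosts. The table holds only genes past a threshold, so a low fold could not appear, and no test was made.

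The share of segments with a host in that table did not move in one direction with the number of lists. It held the host of 88.0% of single-list segments, 90.4% of those in 2 lists, 72.9% in 3 lists, 20.0% in 4 and 36.4% in 5. Of the 463 recurring hosts in it, 456 were protein-coding. One of the others was a mitochondrial ribosomal RNA, with a segment at positions 786 to 965 of the mitochondrial genome. On that genome lay 5 of the 862 recurring segments, out of 8 segments of any kind.

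Recurrence in 3 or more lists went with lower, not higher, median folds, but in most lists not with a lower share past the FDR. The median fold percentile within its list was 38.9 to 57.3 for single-list segments over the 5 lists, 32.6 to 53.2 for 2 lists, 11.4 to 38.5 for 3 lists and 13.9 to 30.1 for 4 or 5. In each list the segments of 3 lists and those of 4 or 5 lay below its single-list segments. The folds also came in steps: in CIBP list 2, 667 of 2416 peaks (27.6%) had a fold of exactly 10.5, and the commonest fold was carried by 20.9% of control list 2, 21.8% of control list 3, 12.7% of CIBP list 3 and 6.62% of control list 1. Of the recurring segments, 218 (25.3%) had at least 1 peak at its list's commonest fold and 10 had every peak at it. In control lists 1 to 3 this held for 6 of 289, 39 of 333 and 69 of 369 recurring segments. In CIBP lists 2 and 3 it held for 88 of 489 and 30 of 356. Each recurring segment has several peaks, so the 25.3% cannot be set beside the shares per peak. The same share over all segments was not counted.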

How the data were processed

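Each of the 6 pairs of ac4C IP and input gave its own peak list, with no pooling of replicates. Per the file headers each peak had exon blocks, a fold (ratio) of IP over input deposited by the authors, a p-value, and log10 values of the p-value and FDR from the authors. The submitters' processing notes name featureCounts 1.6.3, HOMER 4.10.4, DESeq2, HISAT2 2.1.0 and cutadapt 2.5, and the rat build rn6, without roles. The program that called peaks is not given in the sources used. The RIP table held the authors' log2 fold, p-value and FDR per gene, past a threshold, and a deposited signal value per library whose unit is not stated.

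Segments were built as described, in Python 3.11.15 with pandas 2.3.3. The merging and coverage steps were tested on simulated single blocks, and the splitting of peaks into exon blocks was not part of that test. Folds were described or ranked within a list only. Shares have 95% Wilson intervals. Gene symbols came from the RIP table; 29 symbols shared by several identifiers were left out of the list counts. Percentiles ranked a segment's fold among the peaks of its list. Named segments were those of all 5 lists, the first 15 by mean fold percentile of 4 lists (all 10) and of CIBP alone, those of 3 controls alone, the genes with most segments, and listed genes with a segment in 3 or more lists. Genes of the lists with fewer lists are examples. Alternatives covered overlap, FDR, strand, gene name, list length, width, host input and each list left out. The members and the gene lists were chosen with earlier results of these data known. Read depth per library is unknown. Some results are not reported here.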

Additional observations from a re-analysis of the deposited data

How the results depend on the processing

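The 862 recurring segments became 469 with peaks at an FDR of at most 0.05, 573 at equal list lengths, 80 when at least 3 lists were required and 435 to 624 with 1 list left out, which by construction leaves fewer lists. Control-only segments, 202, became 123 with the FDR limit, 5 with at least 3 lists and 65 to 216 with 1 list left out. CIBP-only segments, 137, became 42 with the FDR limit, 69 at equal lengths and 211 with CIBP list 1 added at that FDR. They were 145 to 147 without 1 control list, and gave no value without a CIBP list or with at least 3 lists. The share covered by CIBP list 1, 3.48%, was 0.712% for segments up to the median width, 2.19% and 1.29% for hosts up to and over the median RIP input, 5.12% with the FDR limit, 20.0% with at least 3 lists, 9.74% with that list as deposited and 4.10 to 5.06% with 1 list left out. The median RIP log2 fold of hosts, 2.44, was 2.26 with 1 added to the signals. Overlap over most of the shorter block (0.5 of it or more, 779 segments), merging without gene name (861) or without strand (862) and adding CIBP list 1 (1043) moved the total by less than 1.5 times. The cause of these shifts was not tested. Depth is unknown, so the absence of a peak in a list may be a limit of reads. No paired analysis was possible because these results are counts and shares that come from no test.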
